A study of Homo sapiens with 6 samples.

Results

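Adhesion G protein-coupled receptors were examined in RNA sequencing data from D283 Med, an established line of paediatric medulloblastoma, which arises in the cerebellum. The family was taken up with earlier results of these data known. Its members are the rows of the deposited gene table whose whole symbol is ADGR followed by a letter and a digit. That rule found 21 of 31785 rows. Per the labels, 3 libraries came from cells with the genotype WT and 3 from cells with Musashi-1 knockdown, and Musashi-1 (gene MSI1) binds RNA and is best known from neural stem cells. All 6 libraries came from the same line, grown in serum-supplemented medium, so the line itself is the only model here. How the knockdown was achieved, what the WT cells received and whether replicate libraries were separate cultures is unstated. The p-values therefore describe only the spread among these 6 libraries, which may be technical in part. The heading of the 3 columns used as WT is not explained in the labels, and they were assigned to WT because the other 3 columns carry the knockdown titles.

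Adhesion receptors join a long extracellular part, built of adhesion domains, to the membrane-spanning core shared by G protein-coupled receptors. Most of them cut themselves at a site just outside the membrane, and the stub left on the core can act as a tethered agonist when the outer part is pulled away by a ligand on a neighbouring cell or in the matrix. In the nervous system latrophilins (ADGRL) and the brain-specific angiogenesis inhibitors (ADGRB) act at synapses, ADGRG1 in cortical development and ADGRG6 in myelination by Schwann cells. ADGRB1 has been described as a tumour suppressor in medulloblastoma. ADGRF5 is best known from lung epithelium, where it restrains the surfactant pool, and from endothelium, and the ADGRE receptors from myeloid cells.

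The WT libraries held 17299671 to 38790342 reads and the knockdown libraries 18895997 to 24442276. The targeted gene MSI1 had 1585.7, 1572.3 and 1377.8 normalised reads in WT 1, 2 and 3, and knockdown 1, 2 and 3 had 1385.3, 1197.2 and 1281.2. Normalised reads are reads divided by a size factor per library. The MSI1 groups overlapped, and the difference of −0.21 (SE 0.12) on the deposited log2-like scale missed the threshold (limma, adjusted p = 0.304), so every comparison below is between libraries labelled WT and libraries labelled knockdown. Its paralogue MSI2, on the long arm of chromosome 17, differed by −0.40 (SE 0.17, limma adjusted p = 0.198). Of the 8 medulloblastoma markers, OTX2 had 19886.0 to 34343.5 normalised reads per library, while LMX1A had at most 2.9 and EOMES at most 19.6. NPR3, a natriuretic peptide receptor, was the marker called, and fell (−0.76, limma adjusted p = 0.0437, lost in 6 of 16 alternatives). WT 3 had the fewest reads of the photoreceptor gene IMPG2, at 3216.1 normalised reads against 7881.4 to 14225.8 in the other libraries.

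Of the 21 members, 10 reached the level required for testing, a mean at least 1 above the table's lowest value on the log2-like scale, which is 27.6 normalised reads. Of these, 1 gene, ADGRF5, rose in knockdown and none fell (limma, adjusted p under 0.05 over 13558 tested rows). Over all tested rows 4.1% were called, 1.78% as higher and 2.32% as lower. Of the 314 rows called lower, 89 were among the 578 tested genes of chromosome 17 that start beyond 27 Mb. That position was chosen with earlier results of these data known. No member lies on that chromosome. At an unadjusted p under 0.05 there were 5 of 10 members, 2 higher and 3 lower, against 22.0% of all tested rows. The groups did not overlap for 3 of 10 members, near the 27.8% of all tested rows. The members' median difference was 0.03, beside 0.0061 over all tested rows, and their median absolute difference was 0.29, beside 0.17.

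**Figure D1:**
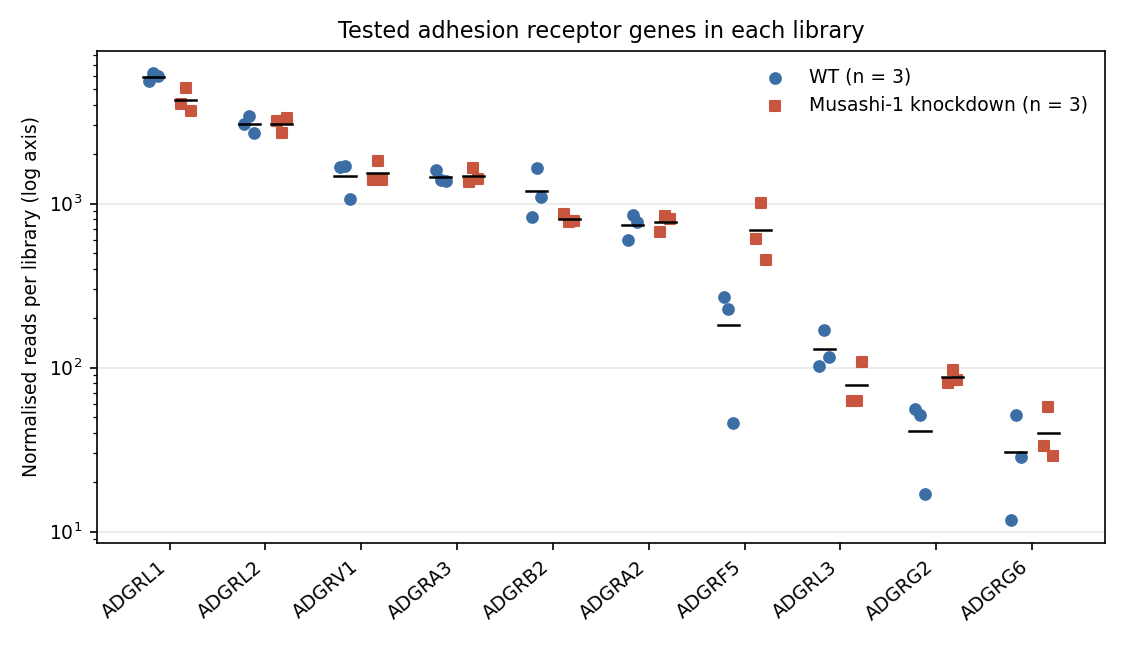
Normalised reads per library on a log axis for the 10 tested adhesion receptor genes, ordered by their WT mean. Circles are WT libraries, squares are Musashi-1 knockdown libraries and short lines are group means; the knockdown squares of ADGRF5 (451.7 to 1013.6) lie above its WT circles (46.1 to 269.4), and those of ADGRL1 (3680.5 to 5045.2) below its WT circles (5597.5 to 6235.6).

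ADGRF5 spans 46852512 to 46954943 on chromosome 6, minus strand (GRCh38, as for all positions here). It had 269.4, 226.4 and 46.1 normalised reads in WT 1, 2 and 3, from 184, 359 and 60 reads. In knockdown 1, 2 and 3 it had 607.1, 1013.6 and 451.7, from 600, 806 and 421 reads. Every knockdown library was above every WT library, and the WT libraries themselves were far apart, with WT 3 lowest. The means were 181 ± 119 and 691 ± 290 (SD, n = 3 each), a 3.82-fold rise. The difference was 1.59 (SE 0.36, 95% interval 0.79 to 2.39; limma, adjusted p = 0.0391). On the deposited log2-like scale 1 tested row of the table had a larger rise. That scale understates rises of weakly expressed genes, so the rank does not hold for folds: RTN4RL1, described below, rose 5.84-fold. The SD of ADGRF5 on the log2-like scale was 0.80 in WT and 0.51 in knockdown, where the medians over all tested rows were 0.18 and 0.12.

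The ADGRF5 call was lost with a robust variance estimate (limma, adjusted p = 0.0853), on the scale of log2(normalised reads + 1) (0.0580), without WT 2 (0.0629) and without knockdown 1, 2 or 3 (0.130, 0.126 and 0.0621), while the difference stayed between 1.13 and 2.28 over 16 alternatives. Without WT 3, the library with the fewest ADGRF5 reads, the difference was 1.13 and the call was kept (adjusted p = 0.0379). A row for the pseudogene ADGRF5P1, on chromosome 9 at 62860873 to 62864957, had 0 reads in each WT library and 2, 7 and 2 reads in knockdown 1, 2 and 3. Reads could be shared between ADGRF5, with 2430 reads in all, and its pseudogene, with 11, and the part of such sharing in the ADGRF5 difference was not tested. In a bulk sample, more cells expressing ADGRF5 and more ADGRF5 RNA per cell cannot be told apart.

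Of 8 markers of endothelium, where ADGRF5 is well known, 3 reached the level for testing and 5 did not. VWF, von Willebrand factor, had 98.4 to 201.1 normalised reads over the 6 libraries, the adhesion molecule ESAM 161.0 to 205.0 and the VEGF receptor KDR 32.4 to 118.2, a range like that of ADGRF5 in WT. The tight junction gene CLDN5 had 11.7 to 27.6. PECAM1, the platelet and endothelial adhesion molecule, had 0 to 3.1 normalised reads, and its knockdown libraries were all at 0. The endothelial receptor kinases TEK and TIE1 had at most 2.5, and VE-cadherin, CDH5, had 0 to 2.5 in WT and 0 to 8.8 in knockdown. The summed level of the 8 markers was 361 to 469 normalised reads in WT and 370 to 493 in knockdown. None of the 3 tested endothelial markers was called, and their median difference was −0.06, with overlapping groups for all 8. Of 6 myeloid markers 5 had rows and none reached the level for testing, and their sum ran from 7.32 to 52.2 in WT and from 12.1 to 17.2 in knockdown. The glial markers summed to 484 to 1069 normalised reads in WT and 582 to 693 in knockdown. Nearly all of that sum was SLC1A3, with 466.7 to 1060.1 in WT and 575.1 to 690.1 in knockdown. GFAP had at most 10.0 normalised reads, MBP at most 7.7 and AQP4 at most 2.5, and MOG had no row. The stromal markers summed to 993 to 1303 in WT and 716 to 1023 in knockdown. PDGFRB and COL1A1 held most of the stromal sum, with differences of −0.39 and −0.20. The other stromal genes had higher knockdown means. Decorin, DCN, was under the level for testing, with 14.6, 10.7 and 3.1 normalised reads in WT against 26.3, 25.2 and 27.9 in knockdown, without overlap. The collagen gene COL1A2 had 21.5 to 27.8 in WT and 30 to 35.2 in knockdown, again without overlap (0.15). The WT mean of COL1A2 alone lies under the level for testing, so the gene was tested through its knockdown libraries. Groups without overlap and with knockdown higher were found for 14.1% of all tested rows. LUM, lumican, had 4 reads over the WT libraries and 12 over the knockdown libraries. None of the 4 tested genes on the glial and stromal lists was called, and the part of other cell types in the ADGRF5 difference was not tested.

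None of the 6 tested genes nearest to ADGRF5 on the chromosome was called higher, and 2 were called lower, beside 1.78% and 2.32% of all tested rows. On the lower-coordinate side, PLA2G7, the secreted platelet-activating factor acetylhydrolase, has its lower end 148.3 kb from that of ADGRF5 and fell from 412 ± 191 to 139 ± 46.7 normalised reads (SD, n = 3), a difference of −1.09 with an SE of 0.25 (limma, adjusted p = 0.0389). TDRD6, a tudor domain protein of male germ cells, fell from 94.7 ± 38.4 to 17.4 ± 8.76 (−0.97, SE 0.18, limma adjusted p = 0.0235; −2.44 on the scale of log2(normalised reads + 1)). The knockdown mean of TDRD6 alone lies under the level for testing, so the gene was tested through its WT libraries. PLA2G7 and TDRD6 overlap at their ends on opposite strands, and no source used here says whether counting used strand, so reads in the overlap cannot be told apart. SLC25A27, a mitochondrial carrier, had a difference of −0.34 (adjusted p = 0.221). On the other side the differences were −0.08 for TNFRSF21, a death receptor, −0.43 for CD2AP, an adaptor of the actin cytoskeleton, and 0.17 for MUT, methylmalonyl-CoA mutase, none of them called (limma, adjusted p = 0.760, 0.0755 and 0.426). The PLA2G7 and TDRD6 calls were each lost in 5 alternatives, of 16 and 15.

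**Figure D2:**
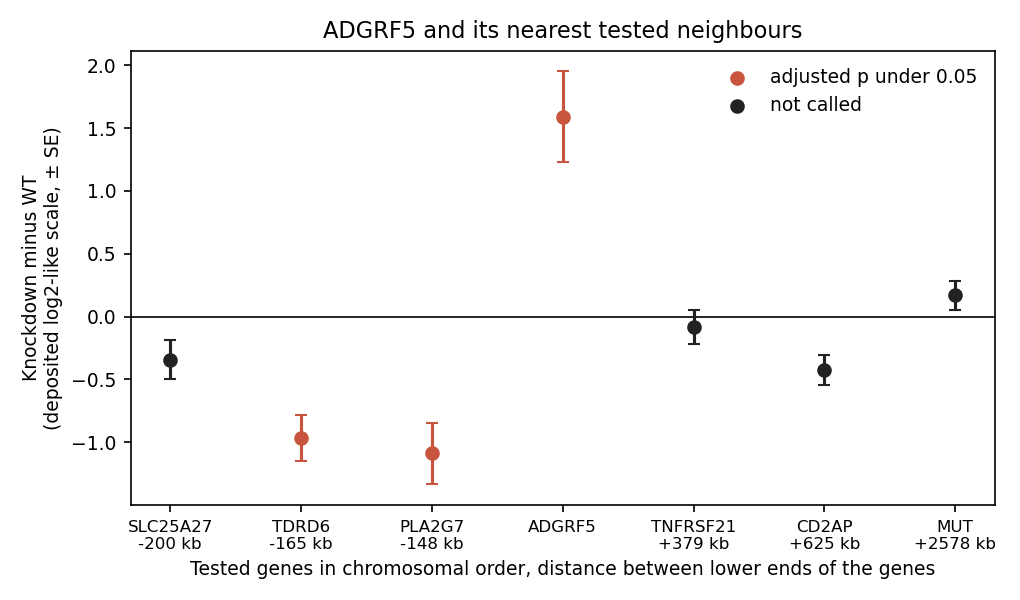
Difference between knockdown and WT, on the deposited log2-like scale with its SE, for ADGRF5 and the 3 nearest tested genes on each side, in chromosomal order with the distance between the lower ends of the genes in kb. ADGRF5 (1.59) is above 0, while PLA2G7 (−1.09) and TDRD6 (−0.97), the other called genes, are below it.

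The latrophilins held most of the family's mRNA. Per kb of annotated exon, ADGRL1, ADGRL2 and ADGRL3 together made up 68.9% ± 1.71 of the summed level of the 21 members in WT and 62.7% ± 2.23 in knockdown (SD, n = 3). ADGRL1 alone held 43.2%, 41.5% and 46.8% in WT 1, 2 and 3, while knockdown 1, 2 and 3 gave 34.4%, 37.9% and 31.9%. ADGRF5 held 2.65%, 1.92% and 0.46% in WT, and its share in knockdown was 6.56%, 9.71% and 5.00%. Neither share overlapped between the groups, though with 3 libraries a group the smallest p of an exact permutation test is 0.1. Both shares are parts of the same sum, so they are not independent, and a rise in either lowers the other. The summed level per kb was 1604 ± 146 in WT and 1440 ± 113 in knockdown, and its groups overlapped.

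**Figure D3:**
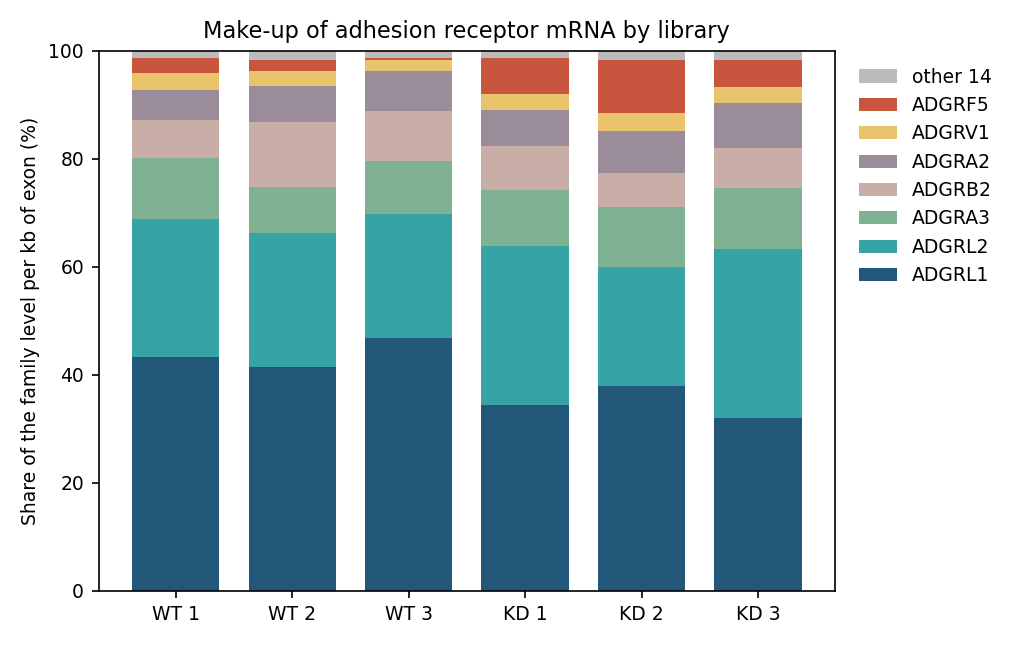
Share of the summed level of the 21 adhesion receptor genes, in normalised reads per kb of exon, held by each of the 7 highest genes and by the other 14 together, in each library. The segment of ADGRF5 is thicker in the knockdown (KD) bars (5.00% to 9.71%) than in the WT bars (0.46% to 2.65%), and that of ADGRL1 is shorter (31.9% to 37.9% against 41.5% to 46.8%).

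ADGRL1, the receptor of alpha-latrotoxin and of teneurins, spans 14147743 to 14206187 on chromosome 19, minus strand. It had 5597.5, 6235.6 and 6000.8 normalised reads in WT and 4063.9, 5045.2 and 3680.5 in knockdown. The groups did not overlap, and knockdown held 71.7% of the WT mean (5945 ± 323 against 4263 ± 704, SD, n = 3). The difference of −0.48 (SE 0.14, 95% interval −0.78 to −0.18) did not pass over all genes (limma, adjusted p = 0.0764). It passed when libraries were weighted by their spread (−0.60, adjusted p = 0.0155), and in no other alternative of 16. The antisense gene AC022098.1, which overlaps ADGRL1 on the other strand, had 61.8 to 122.8 normalised reads over the 6 libraries, few beside those of ADGRL1.

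ADGRL2, a postsynaptic latrophilin (chromosome 1, 81306160 to 81992436), differed by less than its spread between replicates. It had 3033.8, 3412.0 and 2698.7 normalised reads in WT and 3170.3, 2676.0 and 3310.3 in knockdown, with a difference of 0.0025 and a 95% interval of −0.29 to 0.29. ADGRL3, which binds FLRT3 and teneurins and is linked to attention deficit disorder, was expressed far lower (chromosome 4, 61201258 to 62078335). It had 102.5, 170.3 and 115.9 normalised reads in WT and 62.7, 62.9 and 108.4 in knockdown. Its groups overlapped through knockdown 3, and the difference of −0.41 (SE 0.17) missed the threshold (limma, adjusted p = 0.189). On the scale of log2(normalised reads + 1) it was −0.74.

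Among the brain-specific angiogenesis inhibitors, ADGRB2 (chromosome 1, 31727117 to 31764893) was the tested member. It had 825.8, 1640.4 and 1095.3 normalised reads in WT and 863.2, 767.1 and 777.9 in knockdown. The knockdown libraries were close together and the WT libraries were not, so the groups overlapped through WT 1. The difference was −0.46 (SE 0.20, 95% interval −0.90 to −0.03; limma, adjusted p = 0.201). It passed without WT 1 (−0.67, adjusted p = 0.0474) and with library weights (−0.62, adjusted p = 0.0397), and was −0.22 without WT 2 (adjusted p = 0.439). ADGRB1, which binds phosphatidylserine on dying cells, had 2 to 12 reads per library, and ADGRB3, a synaptic receptor of C1q-like proteins, had 16, 25 and 8 reads in WT and 2, 8 and 2 in knockdown.

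The A receptors and ADGRV1 differed by less than the spread between replicates. ADGRA3, implicated in planar cell polarity (chromosome 4, 22345071 to 22516054), had 1604.7, 1395.1 and 1372.4 normalised reads in WT and 1347.9, 1636.0 and 1412.1 in knockdown, with a difference of 0.0061 (95% interval −0.26 to 0.27). ADGRA2, the receptor that works with RECK to pass WNT7 signals in brain vessels, had 598.8, 847.6 and 774.5 in WT and 665.8, 842.5 and 799.4 in knockdown (0.05, 95% interval −0.27 to 0.38). ADGRV1, the giant receptor of hair cell ankle links that is mutated in Usher syndrome (chromosome 5, 90529344 to 91164437), had 1672.1, 1681.4 and 1060.8 in WT and 1382.3, 1823.4 and 1394.9 in knockdown (0.07, 95% interval −0.33 to 0.47). The groups of these 3 genes overlapped. Their intervals leave room for a change of up to 0.47 on the log2-like scale.

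In the G subfamily ADGRG2 (chromosome X, 18989309 to 19122637) and ADGRG6 (chromosome 6, 142301854 to 142446266) reached the level for testing. ADGRG2, a receptor of fluid resorption in the epididymis, had 55.6, 51.1 and 16.9 normalised reads in WT and 81.0, 96.8 and 83.7 in knockdown. Its groups did not overlap, with WT 3 again lowest, and its mean was 2.12-fold higher in knockdown (41.2 ± 21.2 against 87.2 ± 8.49, SD, n = 3). The difference of 0.54 (SE 0.17) did not pass (limma, adjusted p = 0.107, range over 15 alternatives 0.0639 to 0.244). It was 0.34 without WT 3 and 1.23 on the scale of log2(normalised reads + 1). ADGRG6 had 11.7, 51.1 and 28.4 normalised reads in WT and 33.4, 57.8 and 29 in knockdown, which overlapped (0.18, SE 0.19). It lay just above the level for testing, by 1.09 over the lowest value, and ADGRG1, at 0.58, was the highest member below it.

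**Figure D4:**
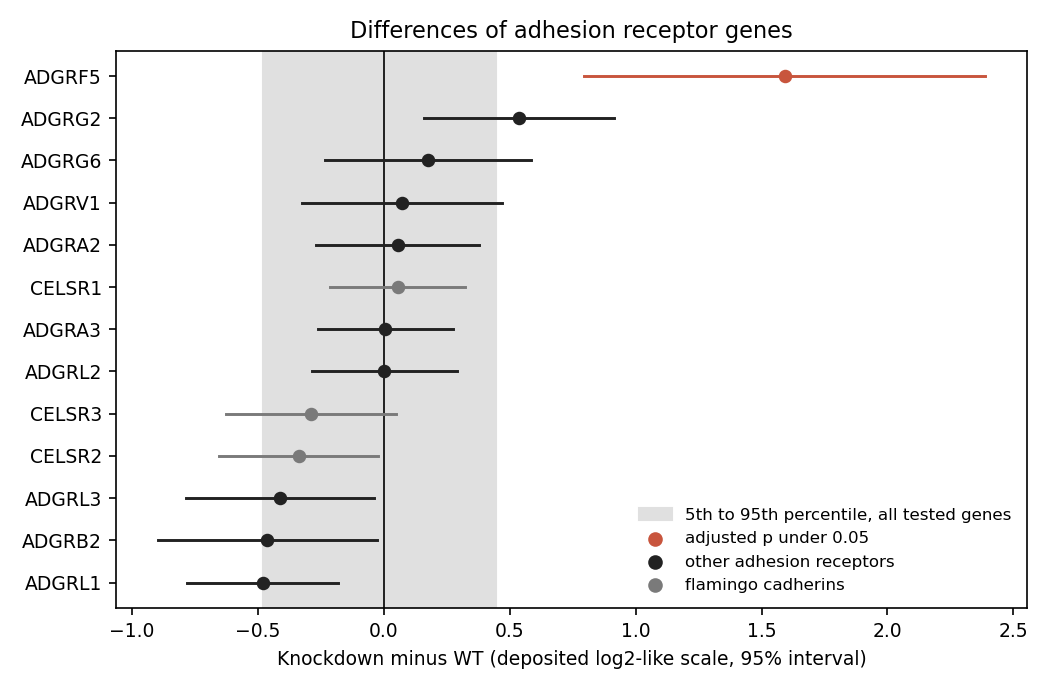
Difference between knockdown and WT on the deposited log2-like scale, with its 95% interval, for the 10 tested adhesion receptor genes and the 3 flamingo cadherins (CELSR). The grey band runs from the 5th to the 95th percentile of all tested genes, and ADGRF5 (1.59, interval 0.79 to 2.39) is the gene whose interval lies wholly to the right of that band.

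Ordered by level per kb of exon in WT, ADGRL1 (700 ± 38 normalised reads per kb, SD, n = 3) led ADGRL2 (393 ± 46), ADGRA3 (158 ± 13.9), ADGRB2 (153 ± 53.5) and ADGRA2 (105 ± 18.1). Below them were ADGRV1 (43.5 ± 10.5), ADGRF5 (27.2 ± 17.8), ADGRL3 (9.26 ± 2.57), ADGRG2 (4.06 ± 2.09) and ADGRG6 (3.59 ± 2.33). Between libraries the WT ranges overlapped for ADGRA3 and ADGRB2, ADGRB2 and ADGRA2, ADGRV1 and ADGRF5, ADGRF5 and ADGRL3, and ADGRG2 and ADGRG6. Within libraries ADGRB2 was above ADGRA2, and ADGRV1 above ADGRF5, in each of the 3 WT libraries. The order of the other 3 pairs differed between libraries, with ADGRB2 above ADGRA3 in WT 2, ADGRL3 above ADGRF5 in WT 3 and ADGRG6 above ADGRG2 in WT 2 and 3. In knockdown ADGRF5 stood at 104 ± 43.6, beside ADGRA2 (109 ± 13.1) and ADGRB2 (103 ± 6.78), with which it overlapped.

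The other 11 members were at or near the limit of detection, with means of at most 9.93 normalised reads over the 6 libraries. ADGRG1 had 60 reads in all, ADGRB3 61, ADGRE5 43, ADGRB1 41 and ADGRF3 34. ADGRD1 had 5 reads, ADGRE1 4, ADGRF1 3, and ADGRE2, ADGRF2 and ADGRG4 had 2 each. ADGRE1, ADGRE2, ADGRF2 and ADGRG4 had no read in the knockdown libraries, where a count of 0 allows up to 3 reads of 66707556, counting error only. With no filter on low values all 21 were tested and ADGRF5 was the only member called (limma, adjusted p = 0.00402), while the 11 low members had adjusted p of 0.331 to 0.983. The lowest of these belonged to ADGRB3 (−0.33, SE 0.15, unadjusted p = 0.0382). Another 8 protein-coding ADGR genes of the GENCODE 29 annotation had no row under these names in the deposited table and could not be analysed. They are ADGRA1, ADGRD2, ADGRE3, ADGRF4, ADGRG3, ADGRG5, ADGRG7 and ADGRL4.

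The flamingo cadherins CELSR1, CELSR2 and CELSR3 are the adhesion receptors that orient cells within a sheet and guide axons, and they keep names outside the ADGR rule. All 3 were expressed and none was called. CELSR2 had 1809.7, 2518.3 and 1890.5 normalised reads in WT and 1663.6, 1710.2 and 1438.9 in knockdown, without overlap (−0.34, SE 0.14, limma adjusted p = 0.197), and with library weights it passed (−0.48, adjusted p = 0.0425). Without WT 2 its difference was −0.20. CELSR3 differed by −0.29 (SE 0.15, adjusted p = 0.296) and CELSR1 by 0.05 (SE 0.12, adjusted p = 0.837). Their median was −0.29.

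A few ligands and surface partners of the receptors were called. In the list for latrophilins, of teneurins, FLRT proteins, UNC5 receptors and neurexins, 9 of 14 genes were tested, 1 rose, none fell, and the median was −0.24 beside 0.0061 over all tested rows. Over all tested rows 4.1% were called. An unadjusted p under 0.05 was found for 3 of the 9, against 22.0% of all tested rows. The riser was TENM3, a teneurin that matches neurons across a synapse (chromosome 4, 182143987 to 182803024). It had 765.8, 602.9 and 751.4 normalised reads in WT and 1102.0, 1765.6 and 1118.1 in knockdown, without overlap. The means of 707 ± 90.2 and 1329 ± 379 (SD, n = 3) gave a 1.88-fold rise (0.80, SE 0.18, limma adjusted p = 0.0372). The call was lost in 5 of 16 alternatives, among them without WT 2 (0.0983) and without knockdown 1, 2 or 3 (0.0842, 0.0935 and 0.0726). The netrin receptor UNC5C, the most abundant of the list and named after its value was seen, had a WT mean of 6379 ± 1274 normalised reads and a knockdown mean of 4315 ± 320 (−0.54, SE 0.15, adjusted p = 0.0762, passing in 2 of 16 alternatives).

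In the list of other ligands and partners 14 of 23 genes were tested, 1 rose and 1 fell, with a median of 0.15, where 4.1% of all tested rows were called. An unadjusted p under 0.05 was found for 4 of the 14, against 22.0% of all tested rows. RTN4RL1, a Nogo receptor homologue on the neuronal surface, rose. The Nogo receptors RTN4R, RTN4RL1 and RTN4RL2 bind ADGRB receptors. RTN4RL1, on chromosome 17 at 1934677 to 2025345, had 16.1, 22.7 and 23.8 normalised reads in WT and 149.8, 96.8 and 119.1 in knockdown, without overlap. It rose 5.84-fold, from 20.9 ± 4.16 to 122 ± 26.6 (SD, n = 3; 1.10, SE 0.14, limma adjusted p = 0.00656), and was called in each of the 15 alternatives that tested it (adjusted p 0.000773 to 0.0463). On the scale of log2(normalised reads + 1) the difference was 2.49. These levels rest on 78 reads over the WT libraries and 336 over the knockdown libraries, and the WT mean alone lies under the level for testing.

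The other Nogo receptors were named after their values were seen. RTN4R had 92.2, 149.5 and 111.3 normalised reads in WT and 253.0, 179.8 and 310.1 in knockdown, without overlap. Its difference of 0.70 (SE 0.17) missed the threshold (limma, adjusted p = 0.0506) and passed in 6 of 16 alternatives. On the scale of log2(normalised reads + 1) it was 1.06. RTN4RL2 had 459.7, 608.0 and 401.4 in WT and 753.9, 675.3 and 712.5 in knockdown, again without overlap (0.48, SE 0.15, adjusted p = 0.0942), and passed in none of 16. Non-overlapping groups with knockdown higher were found for 14.1% of all tested rows.

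C1QL1, a C1q-like synapse organiser made by climbing fibre neurons that binds ADGRB3, fell. It had 207.9, 246.0 and 135.1 normalised reads in WT and 102.2, 79.2 and 85.8 in knockdown, a 2.20-fold fall without overlap (−0.68, SE 0.16, limma adjusted p = 0.0469; −1.10 on the scale of log2(normalised reads + 1)). The call was lost in 7 of 16 alternatives, among them voom on the recovered reads (0.0687) and each library left out except WT 3 (0.0798 to 0.151). C1QL1 lies on chromosome 17 at 44959693 to 44968071, and the 578 tested genes of that chromosome that start beyond 27 Mb, on its long arm, had a median difference of −0.33, with 88.9% of them lower in knockdown. The part of that shift in the C1QL1 difference was not tested. The 210 tested genes before that position, where RTN4RL1 lies, had a median of 0.0093.

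Reported ligands of ADGRF5 itself did not pass the test. SFTPD, surfactant protein D, had means of 222 ± 29.6 normalised reads for WT and 236 ± 64.4 for knockdown (SD, n = 3; 0.05, SE 0.16), and FNDC4, a secreted fibronectin domain protein, had 233 ± 70.8 and 228 ± 20.5 (−0.0010, SE 0.17). Both were chosen after their values were seen, as the list's entries for this receptor.

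**Figure D5:**
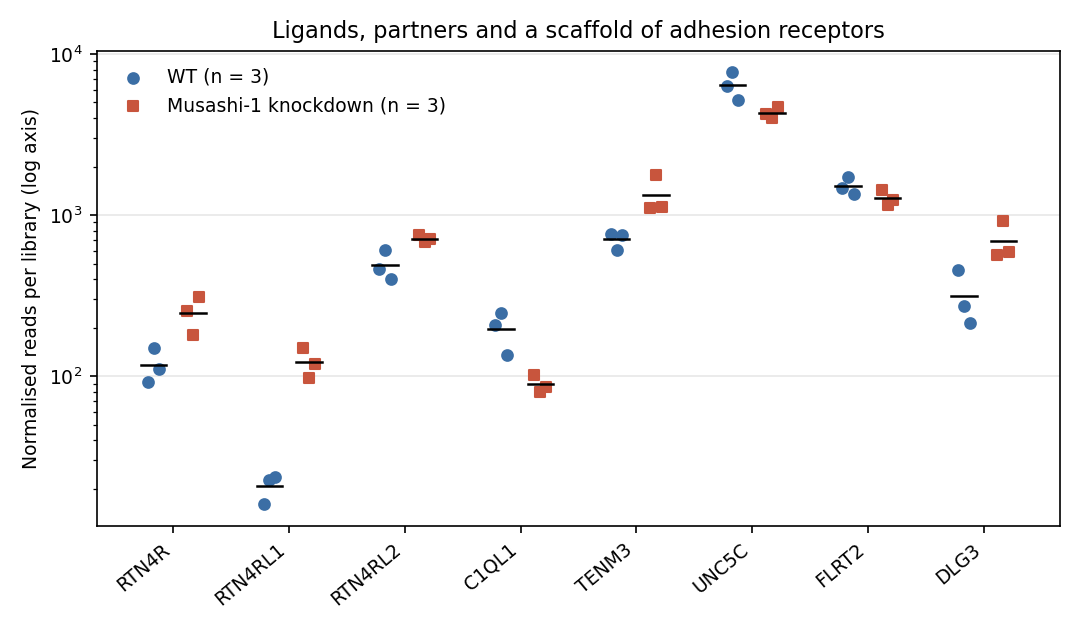
Normalised reads per library on a log axis for the 3 Nogo receptors, C1QL1, TENM3, UNC5C, FLRT2 and the scaffold DLG3. Circles are WT libraries, squares are knockdown libraries and short lines are group means; RTN4RL1 shows the widest gap, with 16.1 to 23.8 in WT and 96.8 to 149.8 in knockdown.

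Signalling components below the receptors were counted next, where 4.1% of all tested rows were called. Of 13 G protein alpha subunits 10 were tested and none was called, with a median of −0.02. The extremes were GNAI2, an inhibitory subunit (0.21, SE 0.12), and GNA13 (−0.45, SE 0.19, limma adjusted p = 0.207). GNA13 lies on the long arm of chromosome 17 too, at 65010715 to 65056839, and passed without WT 1 (−0.70, adjusted p = 0.0188). Without WT 2 it was −0.29 (adjusted p = 0.436). Of 25 effectors, among them the adenylyl cyclases, phospholipases C and the ELMO and DOCK1 engulfment module, 20 were tested and none was called (median −0.0033). They ran from ADCY9 (−0.33, SE 0.14) to ADCY3 (0.25, SE 0.12), both adenylyl cyclases. At an unadjusted p under 0.05 there was 1 alpha subunit of 10 and 2 effectors of 20, against 22.0% of all tested rows.

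All 7 arrestins and receptor kinases were tested and none was called (median 0.13, 1 at an unadjusted p under 0.05), with GRK3 lowest (−0.35, SE 0.16) and GRK2 highest (0.26, SE 0.11). Of 10 PDZ scaffolds that hold receptor tails at synapses, 8 were tested, 1 rose and none fell (median −0.08), where 4.1% of all tested rows were called. An unadjusted p under 0.05 was found for 3 of the 8, against 22.0% of all tested rows. DLG3, a membrane-associated guanylate kinase linked to intellectual disability (chromosome X, 70444861 to 70505490), had 458.3, 272.5 and 214.9 normalised reads in WT and 567.7, 911.7 and 589.1 in knockdown, without overlap. It rose 2.19-fold (0.95, SE 0.22, limma adjusted p = 0.0448), a call lost in 7 of 16 alternatives, among them the robust variance estimate (0.0503) and each library left out except WT 1 (0.0834 to 0.136).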

How the data were processed

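RNA sequencing of 6 D283 Med libraries (3 WT, 3 Musashi-1 knockdown) was analysed from the deposited table of 31785 rows. Its values are on a log2-like scale: going by the file's name and values, the authors divided counts by a size factor per library and stabilised the variance. The submitters' processing notes name STAR, DESeq, Trim Galore, CASAVA 1.8.2, MultiQC and FastQC, and build GRCh38. No source used here names the counter, the annotation or the use of strand.

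Inverting the stabilising function (lowest value 5.79, offset 55.2) gave normalised reads, and 100% of values became whole reads within 0.01 after multiplication by 1 size factor per library. Rows were tested where the mean lay at least 1 above the lowest value (13558 rows), with limma 3.58.1 in R 4.3.3 (two-sided, no covariates, variance moderated along a trend with the mean) and Benjamini-Hochberg adjustment over all tested rows at 0.05. Differences are knockdown minus WT, and those of weakly expressed genes are understated. Folds are ratios of mean normalised reads. Coordinates and exon lengths are from GENCODE 29 (GRCh38), matched by name. The fit was also run on simulated counts. These held no library or gene of unusual spread, so that run does not bear on calls such as that of ADGRF5.

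The members, gene lists and tests were chosen with earlier results of these data known. Named genes are all members, MSI1, MSI2, the CELSR genes, called list genes, the extremes of lists without a call, and the 3 nearest tested genes on each side of a called member. Other genes, the further markers included, were named after their values were seen. Alternatives were other filters, scalings, variance models and scales, library weights, a replicate block and each library left out.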

Additional observations from a re-analysis of the deposited data

How the results depend on the processing

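Filters, scalings and variance models kept the count of calls over all genes (242 higher, 314 lower) within 1.5 times, except library weights (532 higher, 681 lower) and the replicate number as a block (replicate block, 101 higher, 120 lower). Leaving out 1 library gave 25 to 332 higher and 31 to 396 lower. Among the adhesion receptors 1 rise was called, and 0 with a robust variance estimate and with log2(normalised reads + 1), and 0 to 1 with a library left out. No fall was called, against 2 with library weights and 0 to 1 with a library left out. MSI1 was not called in any of 16 alternatives, and with the replicate block its difference was again −0.21. The replicate block kept the ADGRF5 call (1.59, adjusted p = 0.0126, limma) and that of RTN4RL1 (0.0169), and ended those of TENM3, C1QL1, DLG3, NPR3, PLA2G7 and TDRD6. Deviations of same-numbered libraries from their group means correlated by −0.0045, −0.25 and 0.0046 across genes, so the numbers were not taken as pairs.

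Members with differences near 0 changed sign. ADGRL2 was −0.0128 with median centring and −0.0791 to 0.0911 with a library left out. ADGRA3 was −0.0042 with quantile normalisation, −0.0091 with median centring, −0.0098 with library weights and −0.0704 to 0.0726 with a library left out. With library weights ADGRV1 was −0.0511, ADGRG6 −0.0156, ADGRA2 −0.0092 and CELSR1 −0.0161. With a library left out ADGRV1 ran from −0.13 to 0.18, ADGRA2 from −0.0719 to 0.147, CELSR1 from −0.0225 to 0.1158, VWF from −0.0769 to 0.2447, KDR from −0.4517 to 0.0229, SLC1A3 from −0.4914 to 0.0238 and TNFRSF21 from −0.1427 to 0.0247. FNDC4 was 0.0099 with quantile normalisation, 0.0111 with log2(normalised reads + 1), 0.0505 with voom and −0.195 to 0.1193 with a library left out, where SFTPD ran from −0.0861 to 0.2026. The cause of these shifts was not tested. Depth limits the 11 low members, which had 2 to 61 reads over the 6 libraries.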
